A study of Mus musculus with 6 samples.

Results

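The end of a culture course of primary mouse hepatic stellate cells, day 7, was compared with its first time point, day 1, across all genes that were expressed above a fixed level. The series holds 6 libraries of total RNA from which ribosomal RNA had been removed, 2 each from day 1, day 4 and day 7. The comparison rests on the 2 libraries of day 1, numbered 2 and 3, and the 2 of day 7, numbered 1 and 2, whose values are given in that order throughout, and the 2 of day 4 entered the fit to estimate the spread and are quoted where they add to a value. The labels give the mouse as the species and the liver as the tissue, name no strain, age, genotype or treatment, and do not say from which event the days are counted. Whether 2 libraries of the same day stem from different animals or cultures is not stated either, so a p-value here reflects library-to-library spread alone, and that spread may be technical. Of the 35999 gene symbols in the table, 13970 reached a TPM of 1 or more in 2 or more of the 4 libraries compared and were tested, and 11484 were at 0 in all 4 of them.

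Hepatic stellate cells wrap the sinusoids of the liver and keep most of the body's vitamin A, as retinyl esters in lipid droplets. When the liver is injured, or when the cells are plated on plastic, they turn into myofibroblasts, which form smooth-muscle-type actin fibres, secrete collagen-rich matrix and divide. Fresh isolates from liver can also carry Kupffer cells (the resident macrophages), sinusoidal endothelial cells and other cells, so that bulk RNA holds their transcripts too.

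TPM is a share of a library's transcripts, corrected for their length, so levels of different genes can be set side by side. Changes are differences of log2(TPM + 1), day 7 minus day 1, which understate the change of genes near 0, and a gene is said to have risen or fallen where limma's adjusted p was under 0.05. In bulk RNA, fewer cells of a type and less RNA per cell cannot be told apart. The libraries of day 1 differed more from each other than those of the later days: over genes, the within-day SD had a median of 0.195 log2 units for day 1, against 0.0743 for day 4 and 0.0892 for day 7.

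Of 5 stellate cell markers described here, Lrat, Des, Pdgfrb and Dcn rose. Of the other markers in the planned set, Hand2 also rose, Colec11 was not called, and Lhx2 is not reported here. Lrat, which esterifies retinol for storage, stood at 0.491 and 0.496 TPM on day 1, 6.35 and 5.64 on day 4 and 4.83 and 4.5 on day 7, a log2 change of 1.92 (adjusted p = 0.000358). Desmin (Des) went from 6.25 and 6.13 to 34.3 and 34.2 TPM, and the PDGF receptor gene Pdgfrb from 2.15 and 2.61 to 16.1 and 17.2 TPM. Both libraries of day 7 lay above both of day 1 for each of these genes. The decorin gene Dcn had the highest level among these 5 markers, at 132 and 87.8 TPM on day 1 and 659 and 607 TPM on day 7. Reln, a secreted glycoprotein of stellate cells, stood at 9.67 and 12.6 TPM on day 1 and 9.68 and 9.36 TPM on day 7 and was not called (adjusted p = 0.341), although it was without day 1 replicate 2 (adjusted p = 0.0456). The macrophage lysozyme gene Lyz2 was above all of these, at 1401 and 909 TPM on day 1 and 10489 and 10993 TPM on day 7. The defining stellate marker Lrat was thus under 1 TPM in both day 1 libraries, and the part of cell proportions in any change described below was not tested.

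Acta2, the smooth muscle actin that marks the myofibroblast, had the largest rise of all genes that the naming rule covered. It lies at chr19:34241090-34255590 on the minus strand (GRCm38, GENCODE M21) and was at 2.88 and 2.07 TPM on day 1, 465 and 504 TPM on day 4 and 551 and 519.7 TPM on day 7. The groups did not overlap, and the mean of day 7 was 217-fold that of day 1 (log2 change 7.28, SE 0.14, adjusted p = 6.35e-06). Timp1, an inhibitor of matrix metalloproteinases at chrX:20870166-20874735, was at 5.09 and 5.54 TPM on day 1 and at 108 and 122 TPM on day 7, with 68.1 and 68.5 TPM between them on day 4. Its log2 change was 4.19 (SE 0.11, adjusted p = 8.2e-06). Cyp1a1, a cytochrome P450 that oxidises aromatic hydrocarbons, at chr9:57687928-57703824, moved the other way, from 252 and 230.1 TPM on day 1 through 21.5 and 20.2 TPM on day 4 to 7.22 and 6.44 TPM on day 7. Its log2 change was −4.95 (SE 0.11, adjusted p = 8.2e-06). For all 3 genes the day 4 libraries lay between those of days 1 and 7, and for Acta2 close to those of day 7.

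**Figure D1:**
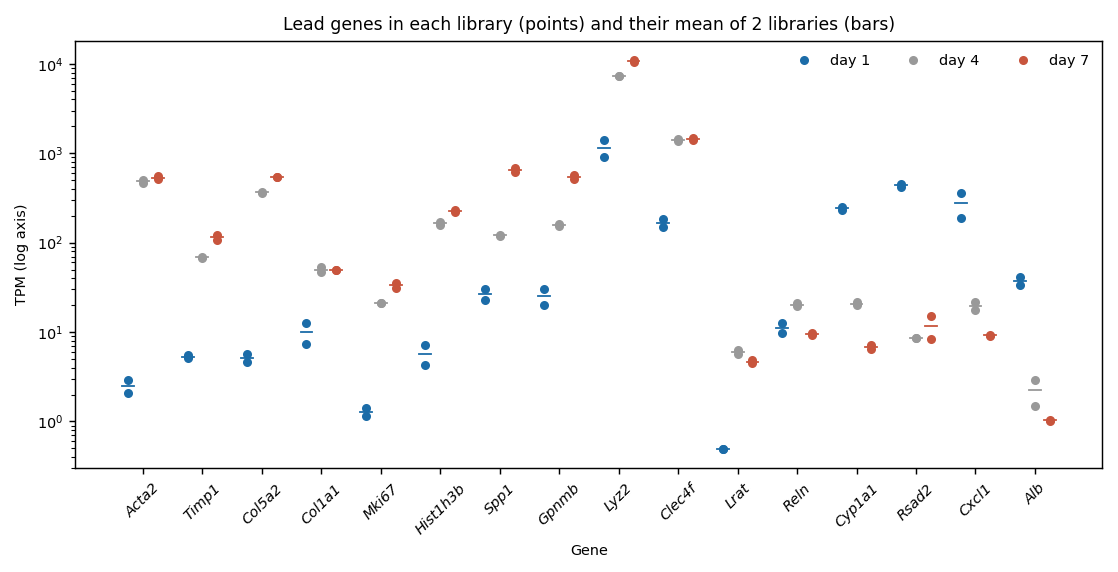
TPM of 16 genes in each of the 6 libraries on a log axis, with points for libraries and bars for the mean of the 2 libraries of a day. Acta2, Timp1, Col5a2, Mki67, Spp1 and Lyz2 are higher on day 7 than on day 1, Cyp1a1, Rsad2, Cxcl1 and Alb are lower, and the points of days 1 and 7 lie closest for Reln.

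Over the whole table the change was broad. Of the 13970 genes tested, 6058 were called (43.4%), of which 3572 rose (25.6% of those tested) and 2486 fell (17.8%), and these shares are the background for each gene list below. The counts depended on the spread estimate: without day 7 replicate 1 there were 2888 calls, without day 7 replicate 2 there were 2882, and without day 1 replicate 2 there were 8050. Among the called genes, 1641 rose and 1050 fell by at least 1 log2 unit, and 49 rose and 30 fell by at least 4. The median change of all tested genes was 0.0417. For 10192 of the 13970 genes (73.0%), called or not, the libraries of days 1 and 7 did not overlap. A lack of overlap is therefore common and does not by itself set a named gene apart.

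One feature of the day 1 libraries bears on every value. A set of 12 predicted gene models that share sequence with Gm10800, a model made of satellite-type repeat, took 17.4% and 26.2% of all TPM on day 1, and 0.0779% and 0.0594% on day 7. Gm10800 alone went from 135382 and 204720.0 TPM to 590.0 and 455 TPM. Because TPM sums to a fixed total, such a share lowers every other gene of those libraries. With these models left out and the rest rescaled to the same total, the median change of all genes moved to −0.29. The called genes then numbered 2208 higher and 4743 lower, or 31.8% higher where the deposited values gave 59.0%. Of the 3572 genes that rose, 2207 still did, and of the 2486 that fell, 2474 still did, with 0 called in the opposite direction. List medians, and list counts where they differ most, are therefore also given on the rescaled values, and the medians are to be read against −0.29 there. Other scalings moved the balance less. Median-ratio scaling gave 3462 genes higher and 2568 lower, with a median change of 0.0385. Quantile normalization gave 3140 higher and 3052 lower, with a median change of −0.0381.

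**Figure D2:**
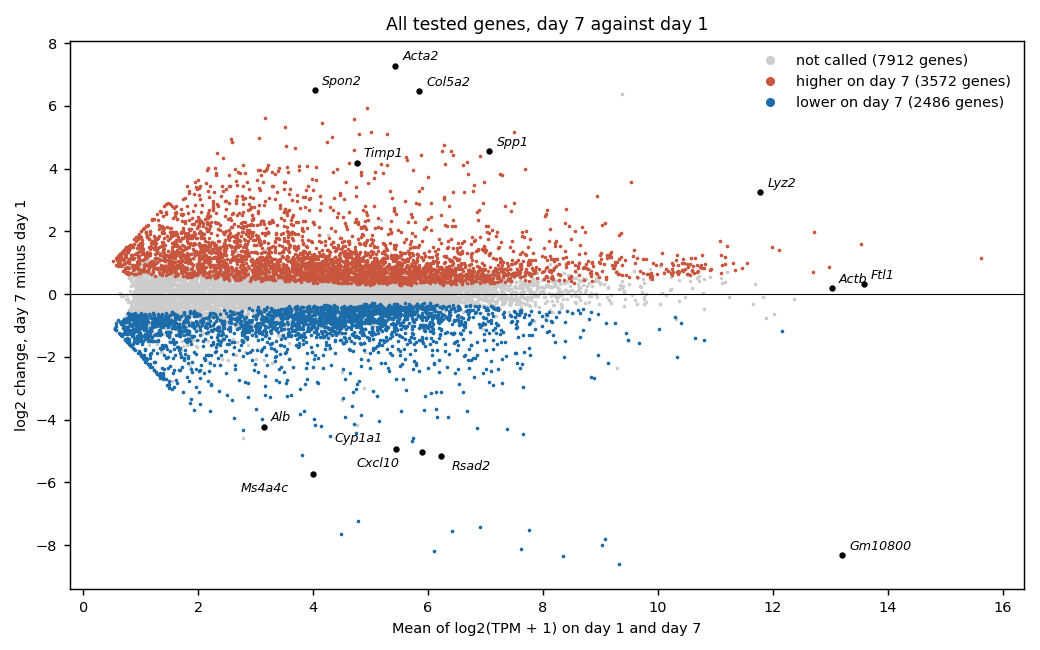
Change of each of the 13970 tested genes (log2, day 7 minus day 1, vertical axis) against its mean log2(TPM + 1) on days 1 and 7 (horizontal axis), with called genes in colour and selected genes in black. The 3572 higher and 2486 lower genes lie above and below 0, Acta2 is the highest called point, and the points under −7 are satellite-like models.

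**Figure D3:**
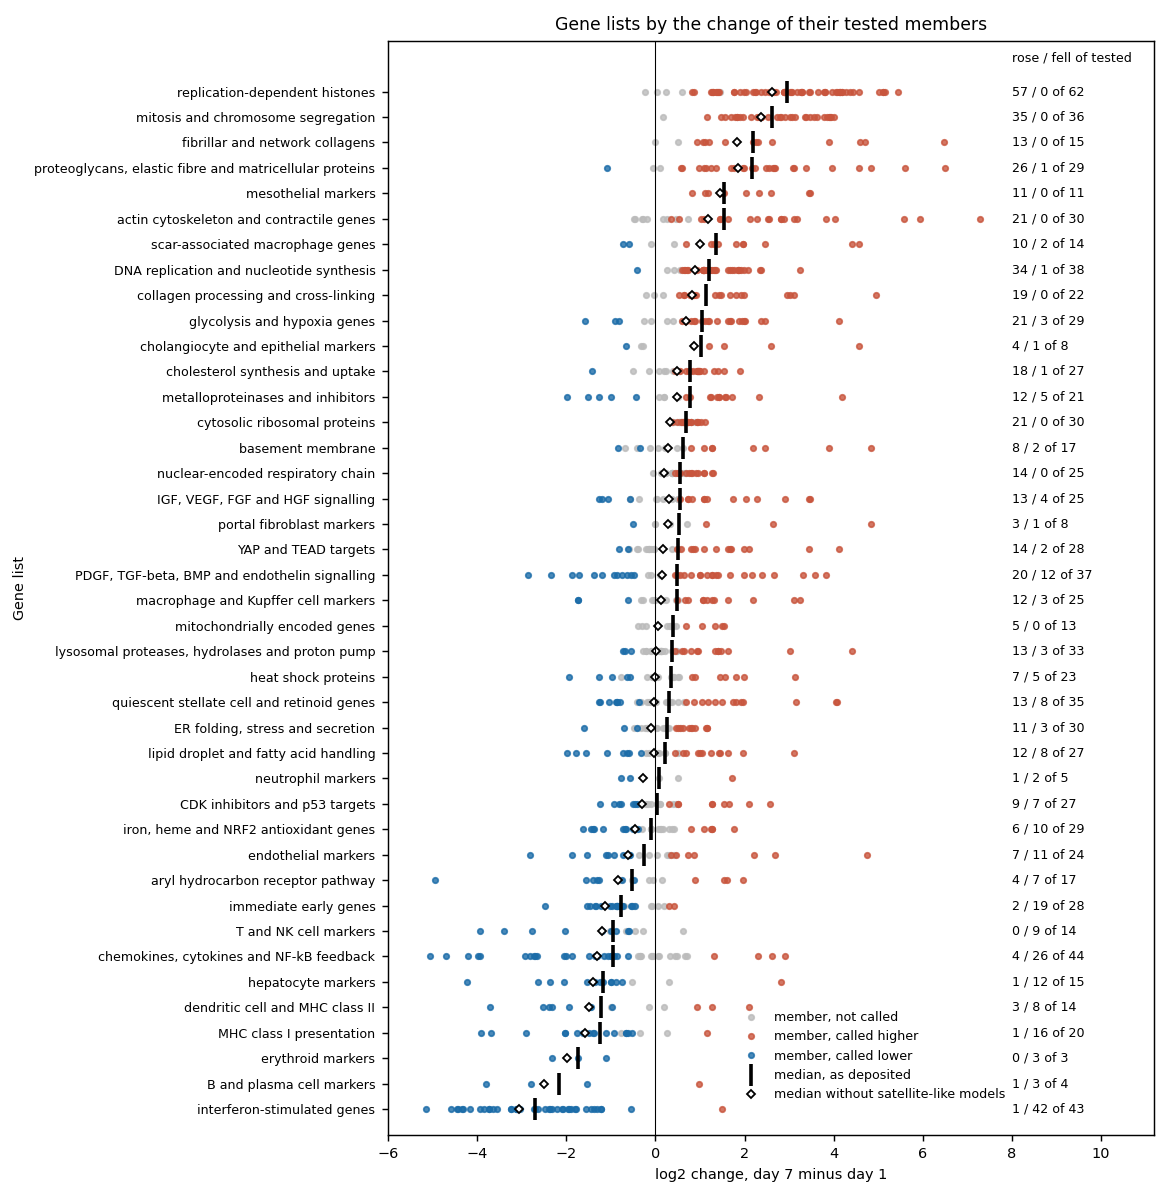
Change of every tested member of 41 gene lists (points, log2, horizontal axis), with the median of each list on the deposited values (bar) and without the satellite-like models (diamond) and the counts that rose and fell. Histones, mitosis genes and collagens lie at the top, and the interferon-stimulated genes, with 42 of 43 lower, at the bottom.

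Contractile genes mostly rose. Of 30 tested genes of the actin cytoskeleton and contraction, 21 rose and 0 fell, with a median change of 1.54 (1.19 rescaled, with 19 rising and 3 falling), and 19 of the 21 were called in the same direction under every one of the 18 alternatives in which they were tested (without day 1 replicate 2, 4 members fell). The regulatory myosin light chain Myl9 was at 4.18 and 1.87 TPM on day 1 and at 239.7 and 229 TPM on day 7 (log2 change 5.93, adjusted p = 3.33e-05). The tropomyosin gene Tpm2 was at 2.97 and 2.65 TPM on day 1 and 180.5 and 179 TPM on day 7 (log2 change 5.57). In both genes the day 7 libraries were far above those of day 1. The smooth muscle genes Cnn1 (calponin), Tagln (transgelin), Actg2 and Myh11 (smooth muscle myosin) rose by 4.01, 3.84, 3.18 and 2.83 log2 units, and Lmod1, an actin nucleator at 0 in both day 1 libraries, was at 5.61 and 4.22 TPM on day 7. The general cytoskeletal genes were abundant on both days: Vim rose by 0.54, a call lost in the rescaled fit and without either day 7 library (adjusted p = 0.11 and 0.143), while Tpm4, at 734 and 509 TPM on day 1 and 747 and 712 TPM on day 7, Actn4, Myh9 and the transcription factor gene Srf were not called. The sum over all list members in the table was 2909.0 and 2969.4 TPM on day 1, and 6193.0 and 6031.6 TPM on day 7.

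The RefSeq promoter of Acta2 (GRCm38.p6, chr19:34255324-34255623, minus strand), 250 bases before the start to 50 bases from it, is shown because this gene heads the list. Capitals mark 2 matches, starting 84 and 34 bases before the start, to the CArG box, the site of serum response factor, with 1 G or C in the stretch of A and T at its middle. The strict form, with A and T alone there, was not in this window, and the looser form was searched after that was seen.
Acta2: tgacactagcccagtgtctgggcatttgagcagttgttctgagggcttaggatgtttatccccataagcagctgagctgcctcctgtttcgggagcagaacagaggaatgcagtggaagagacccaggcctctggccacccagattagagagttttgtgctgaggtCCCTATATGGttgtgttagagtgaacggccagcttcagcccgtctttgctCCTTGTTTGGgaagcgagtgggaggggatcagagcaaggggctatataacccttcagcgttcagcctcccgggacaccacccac
The strict form was in the same window of 4 of the 22 contractile genes with 1 promoter entry (18.2%) and in 1.5% of all 22862 promoters, the looser form in 2 of the 22 (9.1%) and in 8.6% of all, and no entry was found for Tagln. A match is a description of the letters only.

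Collagen genes rose too, from low levels. Of 15 tested fibrillar and network collagens, 13 rose and 0 fell (median 2.18, and 1.84 rescaled). Col5a2 was at 5.63 and 4.62 TPM on day 1 and 544 and 538 TPM on day 7 (log2 change 6.47, SE 0.12, adjusted p = 5.97e-06). Col3a1 was at 4.24 and 4.43 TPM on day 1 and 129 and 126 TPM on day 7 (log2 change 4.59), and Col12a1, which binds the surface of collagen fibrils, at 0.99 and 1.51 TPM on day 1 and 57.7 and 57.5 TPM on day 7 (log2 change 4.71). None of these genes overlapped between the days. The 2 chains of type I collagen rose less, Col1a1 from 7.28 and 12.7 to 49.6 and 49.9 TPM (log2 change 2.25) and Col1a2 from 10.2 and 15.7 to 65.7 and 56.3 TPM (log2 change 2.18), and ended below Col5a2 on the TPM scale. Col6a3, at 2.32 and 1.58 TPM on day 1 and 3.04 and 3.3 TPM on day 7, and Col15a1 were not called, and the call of Col6a2 was lost without either day 7 library (adjusted p = 0.0948 and 0.107). Collagens summed to 49.5 and 63.06 TPM on day 1 and to 947.2 and 926.2 TPM on day 7, when Col5a2 alone stood at 544 and 538 TPM.

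The enzymes that modify, cut and cross-link collagen moved the same way, with 19 of 22 higher and 0 lower (median 1.13, and 0.818 rescaled, with 14 rising and 2 falling). Lox, the lysyl oxidase that starts cross-linking, went from 0.469 and 0.497 TPM to 48.5 and 42.3 TPM (log2 change 4.96, adjusted p = 8.2e-06). Plod2, which hydroxylates telopeptide lysines, went from 4.63 and 3.11 to 40.5 and 39.7 TPM, and Bmp1, which cleaves the procollagen C-propeptide, from 2.89 and 3.85 to 37.1 and 31.1 TPM. Both day 7 libraries were above both day 1 libraries in each. The collagen chaperone gene Serpinh1 rose from 118 and 98.3 to 405 and 356 TPM (log2 change 1.81). Of the 19, 13 were called under every alternative that tested them; 13 rose without day 7 replicate 1 and 14 without replicate 2. Tgm2, a transglutaminase at 600.2 and 573 TPM on day 1 and 556 and 586 TPM on day 7, and Plod3 were not called.

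Of 29 tested proteoglycans, elastic fibre and matricellular genes, 26 rose and 1, the vitronectin gene Vtn, fell (median 2.17, and 1.85 rescaled). Spon2, a spondin of the matrix, was at 0.801 and 0.638 TPM on day 1 and 155 and 152 TPM on day 7 (log2 change 6.49, adjusted p = 5.97e-06). The small leucine-rich proteoglycan gene Ogn was at 0.29 and 0.263 TPM on day 1 and 63.4 and 59 TPM on day 7, and the fibulin gene Fbln2 at 2.54 and 2.5 TPM on day 1 and 97.8 and 103 TPM on day 7. All 3 genes were near or under 3 TPM in both day 1 libraries. Spp1 (osteopontin) rose from 30.6 and 22.9 TPM to 619 and 676 TPM (log2 change 4.56), with 122 and 119.7 TPM on day 4. Fn1 (fibronectin), Postn (periostin), Tnc (tenascin C), Thbs1 and Bgn (biglycan) rose by 3.37, 3.12, 2.67, 2.48 and 2.17 log2 units. The call of Vtn, from 1.54 and 1.17 to 0.217 and 0 TPM, was lost without day 7 replicate 2 (adjusted p = 0.0795). The list summed to 1385.7 and 1321.8 TPM on day 1, and to 5969.2 and 5870.3 TPM on day 7.

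Basement membrane genes were less uniform: of 17 tested, 8 rose and 2 fell (median 0.627, and 0.28 rescaled; 4 fell without day 1 replicate 2). Col4a5 was at 0.0998 and 0.132 TPM on day 1 and 32.5 and 29.9 TPM on day 7 (log2 change 4.85), and the abundant chain Col4a1 rose from 442 and 499 to 1046 and 972 TPM (log2 change 1.10), whereas its partner Col4a2, at 149 and 240.1 TPM on day 1 and 256 and 270.1 TPM on day 7, was not called. The nidogen gene Nid2 and the laminin chain Lama2 rose by 3.89 and 2.47. The 2 that fell, Agrn (agrin) and Lama4, were not called without either day 7 library, when 6 members rose and 0 fell in each case.

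Among 21 tested metalloproteinases and inhibitors, 12 rose and 5 fell (median 0.766, and 0.476 rescaled). The inhibitors Timp1 and Timp2 rose, Timp2 from 24.3 and 22.5 to 75.3 and 68.6 TPM, and the stromelysin Mmp10 rose from 20.4 and 14.3 to 90.6 and 89.2 TPM (log2 change 2.33). Mmp2, the gelatinase of stellate cells, rose from 4.7 and 5.29 to 12.9 and 12.9 TPM. On the other side, Adamts4 fell from 18 and 20.5 to 3.86 and 4.42 TPM (log2 change −1.98, adjusted p = 0.000224), Mmp14, the membrane-bound activator of pro-Mmp2, from 172 and 218 to 61.8 and 72.1 TPM, and Adamts1 and Mmp3 fell by 1.26 and 0.99 log2 units. Day 1 and day 7 did not overlap for any of these. Mmp13 and Mmp9 were not called. Without day 7 replicate 2, 8 rose and 4 fell.

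The quiescence and retinoid genes did not move as a block. Of 35 tested, 13 rose and 8 fell, and their median of 0.304 became −0.0245 rescaled, above the −0.29 of all genes, with 11 rising and 10 falling. Aldh1a1, which oxidises retinal to retinoic acid, went from 2.64 and 2.6 TPM on day 1 to 63.3 and 57 TPM on day 7 (log2 change 4.08, adjusted p = 8.2e-06). Bco1, which cleaves beta-carotene, went from 6.9 and 5.98 to 63.3 and 66.6 TPM. The day 7 values of both genes were above those of day 1. Rarb, a retinoic acid receptor induced by its own ligand, and the transcription factor genes Tcf21 and Hand2 rose by 1.74, 1.80 and 1.50, and the lectin gene Colec10 fell from 2.29 and 1.42 to 0.185 and 0.157 TPM. Gfap and Ngfr did not reach the filter, and Pparg, at 15.5 and 8.51 TPM on day 1 and 12.6 and 9.64 TPM on day 7, Cygb and Colec11 were not called. Only 10 of the 21 calls stood under every alternative that tested them. Without day 7 replicate 1, 10 rose and 2 fell, and without replicate 2, 11 rose and 2 fell.

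Of 27 lipid droplet and fatty acid genes, 12 rose and 8 fell (median 0.223, and −0.0296 rescaled, with 8 rising and 9 falling). Scd2, a fatty acid desaturase, rose from 3.75 and 4.12 to 39 and 44 TPM (log2 change 3.10, adjusted p = 2.37e-05) and the fatty acid-binding gene Fabp5 from 81.5 and 49.6 to 252 and 254 TPM. The droplet coat gene Plin2 fell from 1594 and 1209 to 473 and 476 TPM, and Hilpda, an inhibitor of the lipase Pnpla2, from 222 and 168 to 46.3 and 50.5 TPM (log2 change −1.98). In all 4 the libraries of the days did not overlap. Without day 7 replicate 2, 7 rose and 4 fell, and 5 fell without either day 4 library.

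Ligands and receptors of the PDGF, TGF-beta, BMP and endothelin families changed in both directions: 20 of 37 rose and 12 fell (median 0.49, and 0.149 rescaled, with 15 rising and 13 falling). Among ligands, Bmp4 went from 0.937 and 2.57 to 34.5 and 37.9 TPM (log2 change 3.82, adjusted p = 0.000194), Tgfb3 from 1.66 and 1.39 to 30.4 and 27.9 TPM and Pdgfd from 1.96 and 1.38 to 26 and 25.1 TPM. These 3 ligands were under 3 TPM in both libraries of day 1. Bmp2, a ligand of the sinusoidal endothelium, fell from 33.3 and 44.7 to 10.7 and 9.04 TPM, and Inhbb, an activin subunit, from 132 and 155 to 27.5 and 27 TPM. Tgfb1 fell by 1.37 log2 units, a call lost without either day 7 library (adjusted p = 0.139 and 0.13). Among receptors, Pdgfrb rose by 2.39 and Tgfbr1 by 1.26, while the betaglycan gene Tgfbr3 fell by 1.72 and the endothelin receptor gene Ednrb fell from 473 and 370.3 to 56.3 and 58.3 TPM (log2 change −2.85). Id1, transcribed in response to BMP signals, rose by 2.16, and Edn1 and Smad7 were not called. Without day 7 replicate 1 the falling members numbered 5, and without replicate 2, 6.

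Of 25 growth factor genes of the IGF, VEGF, FGF and HGF families, 13 rose and 4 fell (median 0.541, and 0.313 rescaled). The IGF-binding gene Igfbp6 went from 0.638 and 1.56 to 23.9 and 19.3 TPM (log2 change 3.46) and its relative Igfbp3 from 4.06 and 3.03 to 52.2 and 44.5 TPM (log2 change 3.45). Fgf2 rose from 7.37 and 3.71 to 43.1 and 48.7 TPM, Egfr by 2.29 and Vegfa by 1.74, while the receptor gene Fgfr1 fell by 1.20. The libraries of days 1 and 7 did not overlap for these genes. Hgf itself, held in the quiescence list, fell by 0.37, a call lost when any library of day 4 or day 7 was left out. Without day 7 replicate 2 the falling members numbered 1. The YAP and TEAD factors respond to cell stretch and density. Of 28 genes that encode these factors or are their targets, 14 rose and 2 fell (median 0.509, and 0.176 rescaled, with 11 rising and 7 falling). Tissue factor (F3) rose from 8.82 and 7.89 to 162 and 162 TPM (log2 change 4.12, adjusted p = 8.2e-06), Ajuba from 6.63 and 4.95 to 29.6 and 26.5 TPM, Ccn2 by 1.69 and Ankrd1 by 1.36. The factor genes Yap1, Wwtr1 and Tead1 were not called. Without day 1 replicate 2, 7 of the list fell.

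The aryl hydrocarbon receptor pathway, which induces Cyp1a1 when the receptor is bound by a ligand, had 4 of 17 members higher and 7 lower (median −0.535, and −0.833 rescaled, with 3 rising and 11 falling). The receptor gene Ahr fell from 26.8 and 36 TPM to 13.3 and 11.6 TPM (log2 change −1.26, adjusted p = 0.00203), and Nqo1, a quinone reductase that also answers to NRF2, from 55 and 34.6 to 17.4 and 14.5 TPM. Cyp1b1, another P450 target of the receptor, went the other way, from 4.53 and 3.83 to 19.4 and 18.8 TPM (log2 change 1.96, adjusted p = 0.000168), with day 4 at 11.1 and 12 TPM. The targets Tiparp, at 28.1 and 27.1 TPM on day 1 and 27.8 and 22.1 TPM on day 7, and Ahrr, the receptor's repressor, at 5.79 and 3.25 TPM on day 1 and 2.07 and 1.95 TPM on day 7, were not called on the deposited values, and both were called lower after rescaling. Arnt2 rose from 0.409 and 1.04 to 5.71 and 3.02 TPM, a call lost without day 7 replicate 1 (adjusted p = 0.0528). In that fit 2 members rose and 3 fell, and without day 7 replicate 2, 3 rose and 4 fell.

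The promoter of Cyp1a1 (RefSeq, GRCm38.p6, chr9:57697363-57697662, plus strand) is shown with the core of the receptor's binding site, GCGTG, in capitals, starting 54 bases before the start.
Cyp1a1: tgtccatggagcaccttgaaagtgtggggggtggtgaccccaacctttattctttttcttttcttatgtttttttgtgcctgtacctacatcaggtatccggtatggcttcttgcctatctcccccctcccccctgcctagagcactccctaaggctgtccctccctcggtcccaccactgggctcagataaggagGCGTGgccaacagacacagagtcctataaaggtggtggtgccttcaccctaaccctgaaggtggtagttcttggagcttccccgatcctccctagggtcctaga
GCGTG, searched on both strands, was in 9 of 14 promoters of the list (64.3%) and in 31.9% of all promoters, so a match is common. The same window also held 1 match to the letters of the strict CArG box and 1 to GAAANNGAA, the motif searched in the interferon-stimulated genes. Neither match shows that a factor binds there.

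Interferon-stimulated genes fell almost without exception. Of 43 tested, 42 fell and 1, Ifi27, rose, with a median of −2.71 (−3.06 rescaled), and 42 of the 43 calls stood under every alternative that tested the gene, the exception being Irf1. Rsad2, which makes the antiviral nucleotide ddhCTP, at chr12:26442746-26456452, was at 452 and 422 TPM on day 1, 8.56 and 8.49 TPM on day 4 and 8.31 and 15.1 TPM on day 7 (log2 change −5.16, SE 0.24, adjusted p = 4.27e-05). Irf7, the factor that amplifies interferon output, was at 991 and 889.6 TPM on day 1 and 46.9 and 37.4 TPM on day 7, and Oasl1 at 239 and 280.3 TPM on day 1 and 9.03 and 10.8 TPM on day 7. In these genes both day 1 libraries were high and both day 7 libraries low. Isg15, a ubiquitin-like protein at chr4:156199424-156200818, was at 291 and 461 TPM on day 1 and 27.9 and 25.7 TPM on day 7 (log2 change −3.73). Ifit3 and Ifit3b, near-identical neighbours between which reads may be split, fell by 4.31 and 4.44, and Slfn1 fell by 4.34. The signalling gene Stat2 fell by 2.08, and Irf1 by 0.56, a call lost without either day 7 library (adjusted p = 0.15 and 0.0716). Ifi27 rose from 118 and 86.4 to 303 and 266 TPM. The genes summed to 10542.9 and 9722.5 TPM on day 1, and to 2252.2 and 2213.1 TPM on day 7. Of the other large falls, Ifi206 (log2 change −5.13) belongs to the interferon-inducible p200 family, and Ms4a4c and Ms4a4a (−5.74 and −4.53) are close paralogs of immune cells between which reads may be split.

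Promoters of Isg15 (RefSeq, GRCm38.p6, chr4:156200769-156201068, minus strand) and Rsad2 (chr12:26456403-26456702, minus strand) are shown with GAAANNGAA, the core of the interferon-stimulated response element, in capitals. Isg15 has 3 overlapping matches on the gene's strand, starting at −78, −72 and −66 from the start, and Rsad2 has 1 on the opposite strand whose window begins at −119.
Isg15: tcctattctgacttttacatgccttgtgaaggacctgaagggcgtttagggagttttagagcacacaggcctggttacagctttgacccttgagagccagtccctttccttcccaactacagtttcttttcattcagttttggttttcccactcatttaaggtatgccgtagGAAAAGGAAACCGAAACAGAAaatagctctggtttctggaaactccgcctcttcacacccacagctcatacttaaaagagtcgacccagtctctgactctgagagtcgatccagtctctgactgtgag
Rsad2: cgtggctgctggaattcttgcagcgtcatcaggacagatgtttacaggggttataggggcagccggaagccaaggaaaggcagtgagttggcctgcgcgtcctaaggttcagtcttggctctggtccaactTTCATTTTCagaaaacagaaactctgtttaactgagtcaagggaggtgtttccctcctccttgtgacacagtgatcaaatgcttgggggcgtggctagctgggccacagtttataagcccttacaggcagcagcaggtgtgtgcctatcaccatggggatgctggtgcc
Searched on both strands, GAAANNGAA was in 19 of 26 promoters of the interferon-stimulated list (73.1%) and in 8.6% of all promoters.

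**Figure D4:**
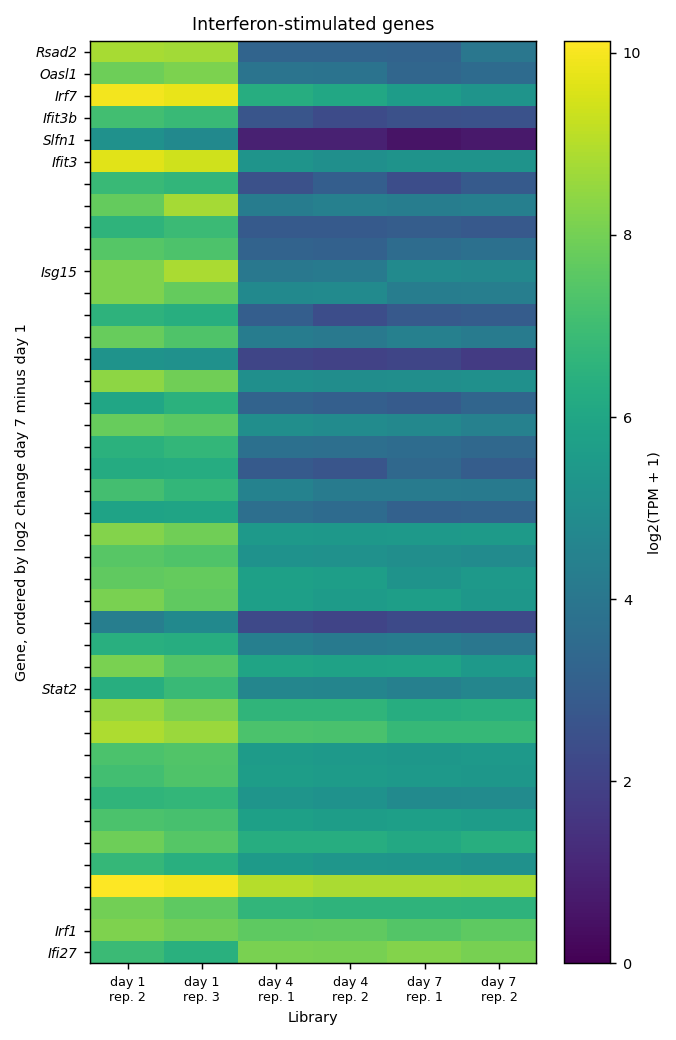
Heat map of log2(TPM + 1) for 42 of the 43 interferon-stimulated genes (rows, with names for those given in the text) in the 6 libraries (columns, by day). The day 1 columns are the highest for each gene shown but Ifi27, which is higher on day 7.

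Chemokines, cytokines and NF-kB feedback genes mostly fell: 26 of 44 fell and 4 rose (median −0.959, and −1.31 rescaled). The interferon-induced chemokine Cxcl10 fell from 378 and 302 to 8.2 and 10.4 TPM (log2 change −5.05, adjusted p = 1.41e-05), the neutrophil attractant Cxcl1 from 360.1 and 189.9 to 9.32 and 9.04 TPM and its relative Cxcl5 from 96.7 and 55.8 to 3.16 and 2.93 TPM. All 3 stood many times higher in each day 1 library than in any day 7 library. Ccl2, the monocyte attractant, fell from 3435 and 1869.5 to 629 and 625 TPM and remained abundant. The NF-kB genes Nfkbia, Nfkb2 and Relb fell by 1.31, 1.48 and 1.32 log2 units. The 4 that rose were Saa3, Ptgs2, Lcn2 and Cxcl14: Saa3, an acute-phase gene, from 71.8 and 58.2 to 476 and 504 TPM, and Ptgs2, the inducible cyclooxygenase, from 3.74 and 3.67 to 29.2 and 26.6 TPM. Il6, at 18.9 and 14.6 TPM on day 1 and 20.5 and 26 TPM on day 7, Ccl3, Ccl4, Icam1 and Vcam1 were not called.

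Genes of antigen presentation by MHC class I fell in 16 of 20 cases and rose in 1 (median −1.24, and −1.59 rescaled). H2-Q6, H2-Q7 and H2-Q4, non-classical class I genes whose near-identical sequences make the split of reads uncertain, fell by 3.92, 3.68 and 2.91 log2 units. The classical gene H2-K1 fell from 3619 and 2381 to 1003 and 1107 TPM, H2-D1 from 2983 and 2274 to 1056 and 904 TPM and the peptide transporter Tap1 from 239 and 213 to 55 and 54.2 TPM. Their day 7 values were all below those of day 1. B2m, at 6495 and 3593 TPM on day 1 and 2778 and 2912 TPM on day 7, was not called on the deposited values (adjusted p = 0.0733) and was called lower when either day 1 library was left out. The chaperone gene Calr rose from 458 and 291 to 778 and 844 TPM, a call lost without either day 7 library (adjusted p = 0.0599 and 0.0741).

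Immediate early genes, the fast transcripts of growth and stress signals, fell in 19 of 28 cases and rose in 2 (median −0.78, and −1.13 rescaled). Fos fell from 47.5 and 55.4 to 24.5 and 25.4 TPM (log2 change −1.01, adjusted p = 0.00126), Fosl2 from 70.5 and 105 to 28.7 and 29.6 TPM and the orphan receptor gene Nr4a2 from 2.96 and 2.54 to 0.301 and 0.429 TPM. The libraries of the days did not overlap for these genes. Fosl1 had the largest fall, from 15.7 and 35.4 to 1.88 and 5.78 TPM, but lost its call without day 7 replicate 1 (adjusted p = 0.0601). The 2 that rose, Maff and Btg2, lost their calls whenever a library of day 4 or day 7 was left out. Of the 21 calls 9 stood under every alternative that tested them, and the falling members numbered 12 and 11 without day 7 replicates 1 and 2. Of 23 heat shock genes, 7 rose and 5 fell (median 0.343, and −0.0132 rescaled, with 7 rising and 10 falling). The small heat shock genes Hspb2, Cryab, Hspb8 and Hspb1 rose by 3.14, 1.99, 1.81 and 1.56, whereas the stress-induced pair Hspa1a and Hspa1b, near-identical copies, fell by 1.93 and 1.26. Hspa1a was at 8.67 and 7.51 TPM on day 1 and 1.3 and 1.46 TPM on day 7, and the constitutive Hspa8, at 2237 and 1709 TPM on day 1 and 2495 and 2465 TPM on day 7, was not called. Without day 1 replicate 2, 13 of the list rose, and without day 7 replicates 1 and 2, 3 fell.

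Genes of cell division rose with few exceptions. Of 36 mitosis genes, 35 rose and 0 fell, Cdc25c not being called (median 2.62, and 2.37 rescaled), and 33 of the 35 stood under every alternative that tested them. Mki67, the proliferation antigen, was at 1.15 and 1.4 TPM on day 1, 21.1 and 21.2 TPM on day 4 and 31.1 and 35.8 TPM on day 7 (log2 change 3.92, SE 0.14, adjusted p = 1.74e-05). Birc5 (survivin) went from 0.959 and 1.63 to 32.5 and 38.8 TPM and Ccnb1 (cyclin B1) from 1.1 and 1.1 to 30.4 and 32.1 TPM. Day 4 and day 7 libraries were all well above those of day 1 for Mki67. Top2a, Cdk1 and Ccnd1 rose by 3.89, 3.55 and 2.36. The mitosis genes summed to 105.1 and 101.4 TPM on day 1, and to 901.3 and 920.6 TPM on day 7. TTTGAA, the letters of the cell cycle homology region, was in 18 of 27 of their promoters (66.7%) and in 18.5% of all promoters, but not in that of Ccnb1.

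Of 38 genes of DNA replication and nucleotide synthesis, 34 rose and 1 fell (median 1.21, and 0.896 rescaled). Rrm2, a subunit of ribonucleotide reductase, rose from 1.82 and 2.92 to 31.4 and 29.9 TPM (log2 change 3.25), Uhrf1 by 2.37 and the licensing factor Cdc6 by 2.34, with no overlap of the days. Pcna rose from 175 and 128 to 238 and 236 TPM, a call lost without either day 7 library (adjusted p = 0.117 and 0.111), and Pola2, the 1 that fell, lost its call there too. Replication-dependent histones gave the highest median of all lists: 57 of 62 rose and 0 fell (median 2.96, and 2.61 rescaled). Hist1h3g, Hist1h3c, Hist1h3b, Hist1h1b and Hist1h2ah were among the 12 largest rises of the genes that the naming rule covered, by 5.44, 5.15, 5.11, 5.10 and 5.01. Hist1h3b was at 7.22 and 4.23 TPM on day 1 and 218 and 232 TPM on day 7. Their transcripts mostly end in a stem-loop in place of a poly(A) tail, which a library from total RNA keeps, and reads may be split among copies of near-identical sequence, so single values are uncertain. The list summed to 2203.5 and 1513.7 TPM on day 1, and to 12937.5 and 11496.1 TPM on day 7.

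Of 27 CDK inhibitors and p53 target genes, 9 rose and 7 fell (median 0.0455, and −0.307 rescaled, against −0.29 for all genes, with 6 rising and 12 falling). Cdkn2c rose from 2.57 and 2.14 to 20.5 and 17.8 TPM, Cdkn2d from 2.68 and 1.93 to 11.1 and 15.4 TPM and Cdkn2a, which encodes both p16 and p19Arf, by 1.53. Ccng1 rose from 100.3 and 72 to 281 and 261 TPM, while Cdkn1a (p21), at 111 and 189 TPM on day 1 and 112 and 123 TPM on day 7, was not called. Trp53 fell by 0.92, a call lost without either day 7 library (adjusted p = 0.184 and 0.0505). The falling members numbered 2 without either of these libraries and 3 without either day 4 library.

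Glycolysis and hypoxia genes rose in 21 of 29 cases and fell in 3 (median 1.04, and 0.69 rescaled, with 17 rising and 5 falling). Aldoc was at 0.766 and 0.538 TPM on day 1 and 27.3 and 28.4 TPM on day 7 (log2 change 4.13, adjusted p = 1.79e-05). The lactate exporter Slc16a3 rose from 25.4 and 17.9 to 117 and 128 TPM, Pdk1, which restrains pyruvate oxidation, from 15.3 and 10.3 to 72.2 and 66.5 TPM, and Ldha by 1.88. The groups did not overlap for these genes. Hif1a, the factor stabilised by low oxygen, fell from 217 and 181 to 111 and 98.9 TPM, as did its target Ndrg1 (log2 change −0.82) and Pfkfb3, whose call was lost without either day 7 library (adjusted p = 0.0598 and 0.0753). Slc2a1, the glucose transporter, was not called. The list summed to 5875.5 and 4857.4 TPM on day 1 and to 10418.0 and 10592.7 TPM on day 7.

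In cholesterol synthesis and uptake, 18 of 27 rose and 1 fell (median 0.785, and 0.492 rescaled). Acat2, the first enzyme of the route, rose from 6.27 and 4.7 to 17.4 and 18 TPM, whereas the cholesterol exporter Abca1 fell from 106 and 131 to 40.1 and 47.4 TPM (log2 change −1.42).

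The calls of several housekeeping programs depended on which libraries were in the fit. Of 30 ribosomal protein genes, 21 rose and 0 fell (median 0.684), but 0 were called without either day 7 library, 4 without either day 4 library and 30 without day 1 replicate 2, and the rescaled values left 7 rising. The median became 0.328 rescaled and 0.298 under quantile normalization. Rpl10a, at 441 and 266 TPM on day 1 and 762 and 728 TPM on day 7, had an adjusted p of 0.0124, and of 0.087 and 0.0758 without day 7 replicates 1 and 2. Of 25 nuclear-encoded respiratory chain genes, 14 rose and 0 fell (median 0.548, and 0.196 rescaled, with 8 rising and 1 falling), with 1 and 2 rising without day 7 replicates 1 and 2, 9 without either day 4 library and 24 without day 1 replicate 2. The member called under all alternatives was Cox6c, from 297 and 215 to 608 and 615 TPM. Of 13 mitochondrially encoded genes, 5 rose and 0 fell (median 0.404, and 0.0518 rescaled), led by mt-Co3, from 1637 and 1140.4 to 3738 and 4144 TPM, and mt-Co1, from 2981 and 1918 to 6578 and 6951 TPM, while 3 members fell without day 1 replicate 2 and 3 rose without day 7 replicate 1. Of 30 genes of ER folding, stress and secretion, 11 rose and 3 fell (median 0.251, and −0.105 rescaled, with 7 rising and 10 falling), with 3 and 2 rising and 0 falling without day 7 replicates 1 and 2, and 5 falling without day 1 replicate 2. Sec23a, of the COPII coat that carries procollagen from the ER, was the largest rise that stood under all alternatives, from 27.2 and 21 to 56.3 and 52.5 TPM.

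Lysosomal genes rose in 13 of 33 cases and fell in 3 (median 0.376, and 0.0245 rescaled, with 11 rising and 7 falling). Gpnmb, a lysosome-linked glycoprotein of lipid-loaded macrophages, rose from 30.5 and 19.9 TPM on day 1 through 159.8 and 154 TPM on day 4 to 521 and 568 TPM on day 7 (log2 change 4.41, adjusted p = 3.53e-05). Atp6v0d2, a subunit of the proton pump, rose from 2.63 and 2.43 to 25.8 and 29.7 TPM and the galactosidase gene Glb1 from 23 and 20.9 to 66 and 73.9 TPM. Both day 7 libraries exceeded both day 1 libraries. Ctsd, an abundant protease at 3235 and 2234 TPM on day 1 and 6830.0 and 7440.5 TPM on day 7, rose with a call lost without day 7 replicate 2 (adjusted p = 0.051). Without day 7 replicates 1 and 2, 7 and 5 members rose and 1 and 0 fell, and without day 1 replicate 2, 20 rose and 6 fell. Iron, heme and NRF2 genes fell in 10 of 29 cases and rose in 6 (median −0.0996, and −0.455 rescaled, with 6 rising and 15 falling). Srxn1, a sulfiredoxin target of NRF2, fell from 204 and 170.4 to 61 and 58.9 TPM, and the heme oxygenase Hmox1 from 1199 and 1152 to 389 and 472 TPM, whereas the ferroxidase gene Cp rose from 15.3 and 17.2 to 52.4 and 63.8 TPM. The groups did not overlap in these genes. The ferritin light chain Ftl1, at 12642 and 9423 TPM on day 1 and 12856 and 14179 TPM on day 7, was not called. The heavy chain Fth1 fell from 5119.7 and 8704 to 2453 and 3538 TPM. Its call was lost with no filter, in the fit of days 1 and 7 alone, without day 1 replicate 3 and without either day 4 library. It was also lost without day 7 replicate 1 or replicate 2. The falling members numbered 5 and 6 without these libraries, and 10 rose without day 1 replicate 2.

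Some genes were low or absent on a single side of the comparison. At least 5 TPM in both libraries of day 7 and under 1 TPM in both of day 1 was the pattern of 99 genes, 96 of them protein coding. Besides Spon2, Ogn, Lox and Col4a5, they include the calcification inhibitor Mgp, at 0 and 0.385 TPM on day 1 and 19.3 and 27.4 TPM on day 7, the cadherin gene Cdh11, at 0.309 and 0.558 TPM on day 1 and 11.3 and 9.88 TPM on day 7, and Wnt5a, at 0.487 and 0.625 TPM on day 1 and 12.1 and 15.9 TPM on day 7. Others were Bdnf, a neurotrophin, at 0.376 and 0.511 TPM on day 1 and 14.3 and 11.7 TPM on day 7, Gdf6, a BMP-family ligand, and the transglutaminase subunit F13a1, at 0.803 and 0.679 TPM on day 1, 2.52 and 2.48 TPM on day 4 and 23.8 and 24.4 TPM on day 7. The reverse pattern held for 27 genes, 17 of them protein coding. They include Slfn1, Socs1, a feedback inhibitor of interferon signalling, at 5.29 and 6.44 TPM on day 1 and 0.706 and 0.617 TPM on day 7, the chemokine gene Ccl22, at 5.24 and 6.57 TPM on day 1 and 0.201 and 0.401 TPM on day 7, and transcripts of hepatocytes (Mup20, Mup22 and Mup7), T or NK cells (Gzma) and plasma cells (Jchain). These genes were chosen by level, so no test is attached.

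Markers of other liver cells moved in different directions. Of 25 macrophage and Kupffer cell markers, 12 rose and 3 fell (median 0.477, and 0.122 rescaled, with 10 rising and 6 falling), and their summed level was 19073.7 and 14841.4 TPM on day 1 and 32614.8 and 35172.7 TPM on day 7. Lyz2 rose by 3.25 (adjusted p = 0.000197), from 1401 and 909 to 10489 and 10993 TPM, and made up much of the rise of that sum. The Kupffer cell lectin Clec4f went from 182 and 148 TPM on day 1 to 1451 and 1373 TPM on day 4 and 1392 and 1478 TPM on day 7. Vsig4, a complement receptor, went from 318 and 181 to 1080.4 and 1110.0 TPM. For these 3 genes every day 7 library was above every day 1 library. Marco, at 3942 and 3198 TPM on day 1 and 2468 and 3296 TPM on day 7, and Timd4 were not called, and Fcgr1, Spic and Itgam fell, the call of Itgam being lost without either day 7 library (adjusted p = 0.105 and 0.0612). Without day 1 replicate 2, 18 of the list rose, and without day 1 replicate 3, 5 fell. Of 14 genes of scar-associated macrophages, 10 rose and 2 fell (median 1.37, and 1.01 rescaled), Trem2 from 30.7 and 24 to 159 and 148 TPM and Apoe from 3812 and 2990.1 to 12680.1 and 13682 TPM, besides Spp1 and Gpnmb above, and 0 fell without either day 7 library. Their sum was 15937.0 and 13925.1 TPM on day 1 and 31379.8 and 33872.2 TPM on day 7. The part of these cells in the changes of matrix, lysosomal and lipid genes was not tested.

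Of 24 endothelial markers, 7 rose and 11 fell (median −0.26, and −0.614 rescaled, with 3 rising and 12 falling) and a sum that moved from 3251.2 and 3347.0 TPM to 2918.9 and 2824.1 TPM. Cldn5, a tight junction gene, fell from 378 and 326 to 53.8 and 45.1 TPM (log2 change −2.81) and Cdh5 by 1.53, whereas Emcn rose from 14.9 and 13 to 412 and 388 TPM (log2 change 4.75) and Plvap from 13.4 and 18.3 to 108 and 106 TPM. Pecam1 fell from 358 and 315 to 227 and 224 TPM, a call lost without either day 7 library (adjusted p = 0.0917 and 0.0956), when 3 members rose and 6 fell. Of 15 hepatocyte markers, 12 fell and 1 rose (median −1.17, and −1.4 rescaled). Albumin (Alb) went from 40.9 and 33.7 TPM to 1.05 and 1.01 TPM (log2 change −4.23, adjusted p = 8.25e-05) and Mup3 from 6.77 and 4.33 to 0.0713 and 0 TPM, while transferrin (Trf) rose from 64.5 and 55.2 to 396 and 452 TPM and carried the list's sum from 151.6 and 122.8 TPM up to 408.5 and 461.4 TPM. Without day 7 replicate 2, 6 fell.

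All 11 tested mesothelial markers rose (median 1.55, and 1.45 rescaled), Upk3b from 0.095 and 0.0187 to 11.8 and 9.54 TPM and Upk1b from 0.498 and 0.293 to 15.8 and 12.7 TPM, for a sum of 27.28 and 23.6 TPM on day 1 and 131.4 and 99.34 TPM on day 7. Of 8 cholangiocyte and epithelial markers 4 rose and 1 fell (median 1.03, and 0.857 rescaled), Krt19 and Krt7 by 2.60 and 1.55, and their sum, 43.23 and 37.21 TPM against 665.5 and 713.8 TPM, was carried by Spp1; Cftr, the 1 that fell, lost its call in most fits that left out a library (adjusted p = 0.133 without day 7 replicate 1). Epcam, their defining surface marker, at 3.07 and 1.17 TPM on day 1 and 1.3 and 1.46 TPM on day 7, was not called. Of 8 portal fibroblast markers 3 rose and 1 fell (median 0.52, and 0.292 rescaled): Fbln2, Gas6 (log2 change 2.65) and Cd34 (1.13) rose, and Thy1, at 13.3 and 14 TPM on day 1 and 8.85 and 9.85 TPM on day 7, had a call that was lost in every fit that left out a library. The list summed to 49.36 and 47.58 TPM on day 1, and to 247.1 and 238.9 TPM on day 7.

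Markers of lymphoid and antigen-presenting cells mostly fell. Of 14 dendritic cell and MHC class II genes, 8 fell and 3 rose (median −1.22, and −1.5 rescaled), with a sum of 1861.1 and 1847.5 TPM on day 1 and 539.3 and 619.7 TPM on day 7. The invariant chain Cd74 fell from 924 and 1001 to 228 and 278 TPM, H2-Ab1 and H2-Aa by 2.52 and 2.38, and the migratory receptor Ccr7 from 15.7 and 15.8 to 0.171 and 0.39 TPM, while the integrin gene Itgax rose from 5.83 and 6.5 to 26.7 and 33 TPM. Among 14 markers of T and NK cells, 9 fell and 0 rose (median −0.946, and −1.19 rescaled; 4 fell without day 7 replicate 2), and Ccl5, Gzmb and Gzma fell by 3.93, 3.39 and 2.78. Their sum was 157.3 and 168.1 TPM on day 1, and 26.83 and 24.47 TPM on day 7. Ccl5, also a member of the chemokine list, alone stood at 79.9 and 101.6 TPM on day 1 and 4.77 and 5.16 TPM on day 7. Of 4 B and plasma cell markers 3 fell and 1 rose (median −2.16, and −2.49 rescaled), Igkc from 50.4 and 49.2 to 2.95 and 2.33 TPM, with Cd79b, the 1 that rose, losing its call without either day 7 library (adjusted p = 0.063 and 0.0553). Of 5 neutrophil markers 1 rose and 2 fell (median 0.0728, and −0.275 rescaled), and the 1 that rose was Mmp8, by 1.71. The call of Csf3r was lost without either day 7 library, and that of Cxcr2 without any single library of day 1 or day 7. Cxcr2 was low throughout, at 1.46 and 1.41 TPM on day 1 and 0.568 and 0.312 TPM on day 7. All 3 tested erythroid markers fell (median −1.74, and −1.99 rescaled), Hbb-bs from 5.91 and 2.67 to 0 and 0 TPM, with reads possibly split among globin copies.

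**Figure D5:**
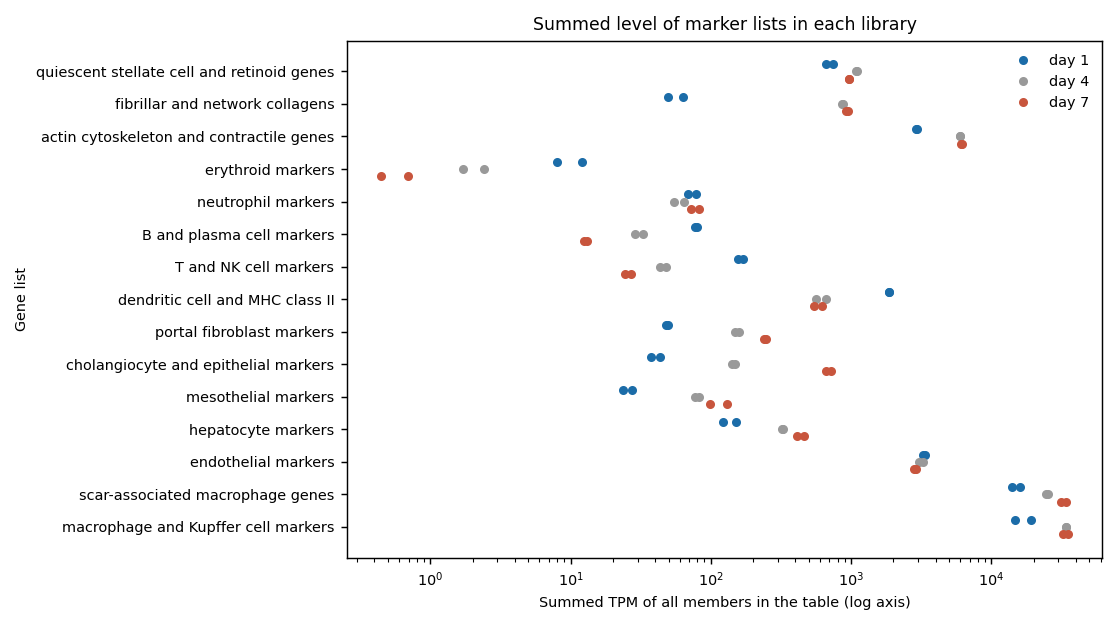
Summed TPM of 12 marker lists and of 3 stellate cell and myofibroblast lists in each library, on a log axis, with colours for days. Collagen, contractile and macrophage sums are higher on day 7, and the T and NK, B and plasma, dendritic and erythroid sums are lower.

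By gene type, as given in the deposited sheet, the 12606 protein-coding genes tested had 3385 higher and 2124 lower (median 0.0726). Processed pseudogenes leaned down, with 33 of 728 higher and 214 lower (median −0.661), as did immunoglobulin variable segments, with 0 of 25 higher and 19 lower (median −1.71). Apart from the satellite-like models, Ccnb1ip1, Ccdc107, Ftl1, Tmsb4x and Actb were among the 10 most abundant genes on both days. Ccnb1ip1 and Ccdc107 overlap the genes of the RNase P and RNase MRP RNAs, so that reads of these abundant RNAs cannot be told apart from theirs. Ccnb1ip1 went from 36215.5 and 31144.3 TPM on day 1 to 80106.6 and 70636.8 TPM on day 7, and Ccdc107 from 7278 and 6356 to 18611.0 and 22251.5 TPM. Their shares, too, lower the other genes of a library, and no alternative left them out. Actb was at 8092 and 7545 TPM on day 1 and 8721 and 8985 TPM on day 7 and was not called (adjusted p = 0.43). The elongation factor Eef1a1, at 5934 and 4488 TPM on day 1 and 8460.5 and 8319.5 TPM on day 7, rose. Its call was lost in the rescaled fit (log2 change 0.345, adjusted p = 0.0594) and in the fit of days 1 and 7 alone. It was also lost when any library of day 4 or day 7 was left out.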

How the data were processed

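The authors deposited TPM values per gene symbol for 6 libraries of total RNA depleted of ribosomal RNA. Per the submitters' processing notes, Trimmomatic, HISAT2 2.0.5 and StringTie 1.3.3b were used with mm10 or GRCm38. Read depth is unknown and TPM keeps none, so no count test or counting interval was possible. Gene types come from a deposited sheet, and coordinates from GENCODE M21 by symbol (35880 symbols matched, 99.7%).

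Genes that reached 1 TPM or more in 2 or more of the libraries of days 1 and 7 were fitted as log2(TPM + 1) with limma 3.58.1 in R 4.3.3, with day as a factor over all 6 libraries (3 residual degrees of freedom) and empirical Bayes with trend and robust options, and day 7 minus day 1 was adjusted by Benjamini-Hochberg over all genes tested. Scripts were tested on simulated data. Satellite-like models share at least 10% of their 20-base words with Gm10800. The 42 gene lists (30 programs, 12 marker lists, 1072 genes, of which 952 were tested and 703 called) and the markers were chosen with earlier results of these data known. The list of long noncoding RNAs was not analysed here.

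Genes were named by rule: the markers Acta2, Timp1 and Cyp1a1, the 3 largest called changes per list, fixed anchors and the 10 most abundant genes per day. The rule also took the 12 largest called rises and falls with a mean of at least 5 TPM on the higher day and no overlap of the days. Predicted models, pseudogenes, small RNAs and immunoglobulin or T cell receptor segments were left out of these largest changes. Some genes that the rule names are not reported here. Other members named in the text were picked after their values were seen. Promoters are RefSeq entries, matched for 6 of 7 genes asked for. Alternatives changed the pseudocount, filter, scaling, variance model, libraries and threshold.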

Additional observations from a re-analysis of the deposited data

How the results depend on the processing

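Of the 149 called genes named by the rule, 131 kept their call in every one of the 19 alternatives that tested them (113 of these were tested in all 19), and 0 reversed. The rule favours large changes, so this share does not stand for all calls. Of the 703 called genes of the lists, 469 kept their call in every one of 18 alternatives that tested them, the 2-fold threshold being left out. The total of 6058 calls ranged from 2882 to 8050 when single libraries were left out (1852 to 4572 higher, 1002 to 3478 lower), lowest without a day 7 library. Without the satellite-like models 2208 genes were higher and 4743 lower. A threshold of 2-fold left 2691 calls, 1641 higher and 1050 lower. With a replicate block there were 4792 calls (3010 higher, 1782 lower). Whether the numbers pair samples is not stated. Same-numbered libraries did not deviate together (r over genes 0.0126 for days 4 and 7, −0.0651 for number 2 on days 1 and 7), which does not exclude a pairing. Other totals stayed within 1.5 times, from 4650 with library weights to 6951 without the satellite-like models. Medians of the heat shock, quiescence, lipid, ER and neutrophil lists changed sign in the rescaled values, and that of CDK inhibitors in the rescaled and quantile-normalized ones. The cause was not tested. With 2 libraries a day and unknown depth, small changes of low genes could not be resolved, and a missed call does not show an equal level.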
